A study of Mus musculus with 6 samples.

Results

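The 10 Toll-like receptors examined here (Tlr1, Tlr2, Tlr3, Tlr4, Tlr5, Tlr6, Tlr7, Tlr8, Tlr9 and Tlr13) were chosen by symbol as named members of this receptor family. The choice was made with earlier results of these data known. All 10 passed the filter on low counts, and they are 10 of the 21849 named genes tested. The RNA-seq libraries came from unstimulated bone marrow-derived dendritic cells (BMDCs) of WT and global Nfkb2-/- C57BL/6 mice, with 3 libraries per genotype. Bone marrow from both genotypes was grown for 5 days with 20 ng/mL GM-CSF and for a further 4 days with 20 ng/mL GM-CSF and 10 ng/mL IL-4, and polyadenylated RNA was taken at 0 h. The Nfkb2 deletion was present in every cell of the knockout animals rather than in dendritic cells alone, and the study describes its culture as mostly CD11c+ cells without macrophage-like cells of high M-CSF receptor. The age of the mice is not given in the sources used here, and the study calls the libraries independent biological replicates, whereas the labels do not say that each came from a separate animal.

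Toll-like receptors are membrane proteins that recognize molecules of microbes and start signaling through the adaptors MyD88 and TRIF toward NF-κB and interferon regulatory factors. Receptors for bacterial lipids and proteins sit at the cell surface, whereas receptors for nucleic acids sit in endosomes and need the chaperone UNC93B1 to get there. Dendritic cells and macrophages use them to sense infection, and the set of receptors a cell carries decides which microbial ligands it can answer. Nfkb2 encodes p100, the precursor of the NF-κB subunit p52 of the noncanonical pathway. The comparison of the genotypes asks whether basal receptor mRNA differed in BMDCs that lack this gene.

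Total counts ranged from 29863927 to 55623068 per library. Nfkb2 itself measured 154 to 355 CPM (TMM-normalized counts scaled to library size) in WT and 32.3 to 44.8 CPM in Nfkb2-/- libraries. Of the genes tested, 248 passed the test between the genotypes, which required an adjusted p under 0.05 in edgeR's quasi-likelihood test and a fold change over 1.2. The dendritic cell markers Cd74, Itgax and H2-Ab1 were detected in all 6 libraries, and the summed level of 9 such markers was 4429 to 8168 CPM in WT and 5964 to 6770 CPM in Nfkb2-/- libraries. In contrast, the T cell marker Cd3e did not exceed 1.18 CPM in any library. Of the 9 dendritic cell markers, 1 passed the test, beside 1.14% of all genes. This was Itgax, at 160, 277 and 123 CPM in WT and 745, 769 and 716 CPM in Nfkb2-/- libraries. Itgax was thus higher in Nfkb2-/- BMDCs, by a log2 fold change of 1.99 (SE 0.30, edgeR adjusted p = 0.0414). Nfkb2-/- replicate 1 held counts on 47952 genes, where the other libraries had 27692 to 33841, and WT replicate 3 stood apart in its receptor levels, as described next.

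None of the 10 receptors passed the test between the genotypes with all 6 libraries, where 1.14% of all genes tested did. An unadjusted p under 0.05 in edgeR was reached by 0 of the 10 receptors and by 17.1% of all genes. DESeq2 also called 0 of the 10, beside 8.65% of all genes. With limma voom 0 of the 10 passed, beside 2.23% of all genes, and 1, Tlr4, had an unadjusted p under 0.05, beside 17.7%. For 8 of the 10 receptors the highest WT library was at least 4.31 times the lowest, whereas the Nfkb2-/- libraries differed by at most 1.72-fold for any receptor. WT replicate 3 had the lowest level of all 6 libraries for 8 of the 10 receptors, beside 5361 of the 21849 genes tested. For 7 of the 10 it lay at least 2-fold below each of the other 5 libraries, as it did for 7.64% of all genes tested. Without this library, Tlr8 passed the test, being lower in Nfkb2-/- BMDCs, where 1.27% of all genes passed. The library was singled out for its low receptor levels, so the pass of Tlr8 is not independent of that choice.

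Promoter sequences are shown for Tlr2 and Tlr3, the only receptors among those matched whose promoter held the letters of an NF-κB site, and for Tlr8 and Tlr9, whose mRNAs varied widely and least, respectively, between libraries. RefSeq promoters (GRCm38.p6, from 250 bases before to 50 bases after the annotated start) were matched for 8 of the 10 receptors. There was no entry for Tlr4 and Tlr7, while Tlr1 and Tlr6 had 2 promoters each and a match in either was counted. In the pair of Tlr2 and the single Tlr3 sequence, the capitals mark matches to the κB consensus. The Tlr2 stretches are chr3:83841768-83841858 and chr3:83841597-83841626 on the minus strand, and the second contains the annotated start. The Tlr3 stretch is chr8:45410572-45410601 on the minus strand, which overlaps exons of Tlr3 and of the antisense gene Gm45542 in GENCODE M21.
Tlr2, upstream: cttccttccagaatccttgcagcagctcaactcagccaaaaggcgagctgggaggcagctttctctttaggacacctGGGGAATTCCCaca
Tlr2, start: ccctgacctgGGGACATCCCcttccctcac
Tlr3: agttgtttctGGGAGTTTCCtgcttttgag
In the Tlr8 and Tlr9 sequences, the capitals mark GAGGAA or its reverse complement, the core of the site of the myeloid factor PU.1. The Tlr8 stretch is chrX:167264330-167264479 on the minus strand and the Tlr9 stretch chr9:106222448-106222597 on the plus strand.
Tlr8: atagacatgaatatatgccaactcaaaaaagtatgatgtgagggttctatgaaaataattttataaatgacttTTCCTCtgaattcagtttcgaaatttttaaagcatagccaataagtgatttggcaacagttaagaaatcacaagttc
Tlr9: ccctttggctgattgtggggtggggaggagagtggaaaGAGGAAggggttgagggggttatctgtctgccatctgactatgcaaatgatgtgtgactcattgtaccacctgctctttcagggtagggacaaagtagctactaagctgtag
Both strands were searched. The κB consensus was found in 8.46% of all 32851 promoters of this length. In Tlr2 it matched at -173 to -163, where overlapping matches shared bases, and again at -8 to 2 counted from the start, and in Tlr3 it matched at -211 to -202. GAGGAA was found in 28.3% of all promoters and in those of Tlr1, Tlr8, Tlr9 and Tlr13. TGANTCA, the AP-1 site, was found in 7.81% of all promoters and among the receptors in that of Tlr9. The core of the interferon-stimulated response element was found in 3.44% of all promoters and among the receptors in that of Tlr6. None of these matches shared bases with a match to another of the 4 motifs in the promoters of the 8 receptors matched. A match gives letters only, and no binding was measured here.

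The cell-surface receptors recognize lipids, lipopeptides and flagellin. Gene positions are those of GENCODE M21 on GRCm38. Tlr4 (chr4:66827584-66930284, plus strand), the receptor for bacterial lipopolysaccharide, had the highest mean level per length in both genotypes. It measured 118, 253 and 39.4 CPM in WT replicates 1, 2 and 3 and 197, 327 and 339 CPM in Nfkb2-/- replicates 1, 2 and 3. The genotypes overlapped through WT replicate 2, which lay above Nfkb2-/- replicate 1. The mean was 137 ± 108 CPM in WT and 288 ± 78.8 CPM in Nfkb2-/- BMDCs (SD, n = 3 each), and the log2 fold change of 1.07 (SE, the standard error, 0.59) did not pass the test (edgeR adjusted p = 0.415). Without WT replicate 3, it was 0.64 (SE 0.38, edgeR adjusted p = 0.495), and without WT replicate 2 it was 1.87 (SE 0.51, edgeR adjusted p = 0.0973).

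Tlr2 (chr3:83836272-83841767, minus strand) pairs with Tlr1 or Tlr6 to bind bacterial lipopeptides. Its level was 57.9, 91.9 and 18.1 CPM in WT replicates 1, 2 and 3, against 38.7, 51.0 and 60.5 CPM in Nfkb2-/- replicates. All 3 Nfkb2-/- values lay inside the WT range. The log2 fold change was -0.16 (SE 0.51, edgeR adjusted p = 0.899).

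Tlr1 (chr5:64924679-64933563) and Tlr6 (chr5:64952031-64960097), both on the minus strand, are neighbours 18.467 kb apart with 0 genes between them. Tlr1 measured 5.05, 6.61 and 0.964 CPM in WT and 3.04, 2.93 and 3.01 CPM in Nfkb2-/- BMDCs. Tlr6 measured 6.86, 8.52 and 1.76 CPM in WT and 5.41, 4.19 and 5.39 CPM in Nfkb2-/- BMDCs. For both genes WT replicates 1 and 2 lay above all Nfkb2-/- libraries and WT replicate 3 below them. The log2 fold changes were -0.49 (SE 0.59) for Tlr1 and -0.20 (SE 0.51) for Tlr6. Tlr1 and Tlr6 also shared 13.6% and 12.3% of their 50-base stretches with each other, so that the split of reads between them is uncertain.

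Tlr5 (chr1:182954788-182976044, plus strand), the flagellin receptor, had the lowest mean level of the 10 in both genotypes. It measured 1.92, 1.51 and 1.55 CPM in WT and 3.07, 1.98 and 1.95 CPM in Nfkb2-/- BMDCs. All 3 Nfkb2-/- libraries lay above the WT libraries, the nearest by a narrow margin and Nfkb2-/- replicate 1 highest. The log2 fold change was 0.49 (SE 0.31, edgeR adjusted p = 0.471), and without Nfkb2-/- replicate 1 it was 0.23.

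**Figure D1:**
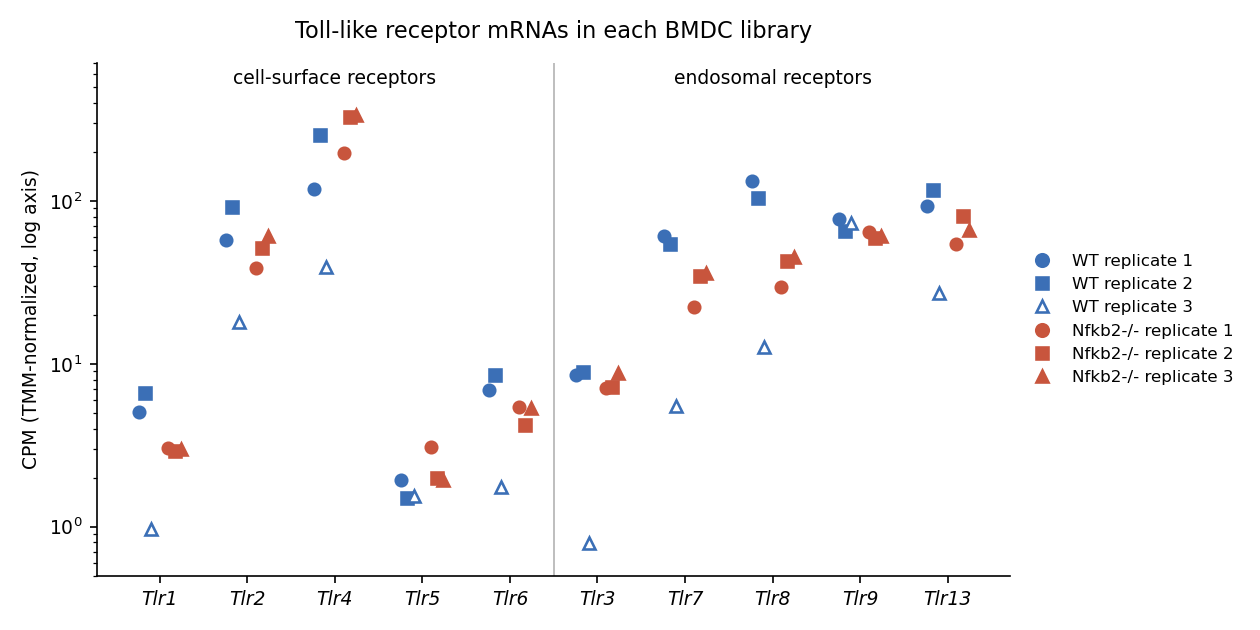
Level of each receptor in each of the 6 libraries, as TMM-normalized CPM on a log axis, with WT in blue, Nfkb2-/- in red and WT replicate 3 as open triangles. WT replicate 3 lies below the other libraries for 8 of the 10 receptors, while for Tlr9 all 6 libraries lie between 59.4 and 77.4 CPM.

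The endosomal receptors recognize nucleic acids. Tlr7 (chrX:167304929-167330558) and Tlr8 (chrX:167242696-167264329) are neighbours on the minus strand, 40.599 kb apart with 0 genes between them, and belong to the group of receptors for single-stranded RNA and its degradation products. Tlr8 measured 133, 105 and 12.6 CPM in WT and 29.4, 43.0 and 45.4 CPM in Nfkb2-/- BMDCs. WT replicates 1 and 2 were both over 2 times as high as any Nfkb2-/- library, whereas WT replicate 3 was lower than all of them. With all libraries the log2 fold change was -1.09 (SE 0.70, edgeR adjusted p = 0.483). Without WT replicate 3, Tlr8 was 3.02-fold lower in Nfkb2-/- BMDCs, with a log2 fold change of -1.60 (SE 0.23, edgeR adjusted p = 0.0427). This library was singled out for low receptor levels, also of Tlr8, so leaving it out raises the WT mean. That pass is therefore not independent of the choice. Without WT replicate 1 the log2 fold change was -0.58 (SE 0.76, edgeR adjusted p = 0.798), and with limma voom on all libraries it was -0.55 (SE 0.79).

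Tlr7 followed the same order of libraries, with 61.1, 54.1 and 5.47 CPM in WT and 22.4, 34.8 and 35.8 CPM in Nfkb2-/- BMDCs. Its difference was smaller, with a log2 fold change of -0.38 (SE 0.72, edgeR adjusted p = 0.827). Leaving out WT replicate 3 gave -0.89 (SE 0.23, edgeR adjusted p = 0.133).

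Tlr9 (chr9:106222598-106226883, plus strand), the receptor for unmethylated CpG DNA, varied least. It measured 77.4, 65.4 and 73.3 CPM in WT and 64.7, 59.4 and 61.2 CPM in Nfkb2-/- BMDCs. The highest library was only 1.304 times the lowest, against 10.5 times for Tlr8 and 11.2 times for Tlr7, and WT replicate 3 lay between the other WT libraries. All 3 Nfkb2-/- libraries lay below the WT libraries, by a log2 fold change of -0.22 (SE 0.14) that did not pass the test (edgeR adjusted p = 0.457).

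Tlr3 (chr8:45395665-45411080, minus strand), the receptor for double-stranded RNA, measured 8.56, 8.89 and 0.792 CPM in WT and 7.09, 7.19 and 8.72 CPM in Nfkb2-/- BMDCs. WT replicate 3 lay 8.96-fold below the next lowest library, and the other 5 libraries lay close together. The log2 fold change was 0.33 (SE 0.70, edgeR adjusted p = 0.846) with all libraries and -0.18 (SE 0.18, edgeR adjusted p = 0.677) without WT replicate 3. Tlr3 shares 381 exonic bases with the antisense gene Gm45542, and whether strand was used in counting is not given in the sources used here. Tlr13 (chrX:106143204-106160493, plus strand), which recognizes bacterial ribosomal RNA and is absent from humans, measured 93.3, 117 and 27.2 CPM in WT and 54.1, 81.0 and 66.7 CPM in Nfkb2-/- BMDCs. Its log2 fold change was -0.23 (SE 0.47, edgeR adjusted p = 0.838), with all Nfkb2-/- libraries inside the WT range.

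The 2 remaining mouse receptors, Tlr11 and Tlr12, which bind profilin of protozoa, were taken as a comparison outside the 10. Tlr11 measured 3.06, 3.66 and 2.93 CPM in WT and 4.67, 5.01 and 4.13 CPM in Nfkb2-/- BMDCs, with a log2 fold change of 0.52 (edgeR adjusted p = 0.27). Tlr12 measured 4.96, 4.43 and 5.78 CPM in WT and 3.43, 3.56 and 2.99 CPM in Nfkb2-/- BMDCs, with a log2 fold change of -0.60 (edgeR adjusted p = 0.202). Neither passed the test, and in neither did the genotypes overlap. Among the 10 receptors the genotypes did not overlap in 2, Tlr5 and Tlr9, beside 24.7% of all genes tested.

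Over the 10 receptors, the log2 fold changes had a median of -0.21, beside 0.08 over all genes tested, with 3 values above 0 and 7 below. Without WT replicate 3 the median was -0.60, beside 0.07 over all genes, with 2 above 0 and 8 below. The direction turned without WT replicate 2, where the median was 0.18 with 6 above 0 and 4 below, and with limma voom on all libraries, where it was 0.07 with 6 above 0 and 4 below. An unadjusted p under 0.05 in edgeR was reached without WT replicate 3 by 5 of the 10 receptors, Tlr1, Tlr6, Tlr7, Tlr8 and Tlr13, all lower in Nfkb2-/- BMDCs, and by 16.5% of all genes. Tlr8 alone passed after adjustment. WT replicate 3 was singled out for the low levels of these same receptors, and leaving it out raises their WT means. The count of 5 and the pass of Tlr8 are therefore not independent of that choice. Tlr4 and Tlr5 were the members with a log2 fold change above 0 without WT replicate 3.

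**Figure D2:**
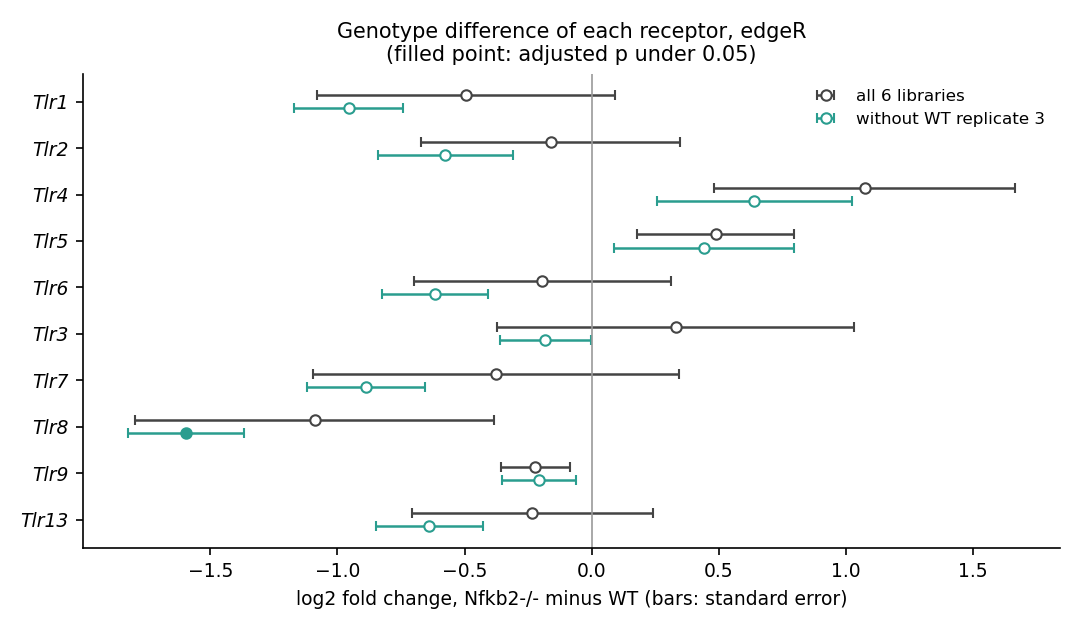
Log2 fold change of each receptor, Nfkb2-/- minus WT, with its standard error from edgeR, with all 6 libraries (grey) and without WT replicate 3 (green), where filled points have an adjusted p under 0.05. Only the Tlr8 point without WT replicate 3, at -1.60, is filled, and that library was singled out for its low receptor levels.

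Levels were compared between receptors as CPM per kb of exon, since a longer mRNA collects more reads. In WT BMDCs the means ran from Tlr4 (24.6), Tlr8 (23.3), Tlr9 (20.7), Tlr2 (18.6), Tlr13 (18.4) and Tlr7 (9.85) down to Tlr6 (1.53), Tlr1 (1.26), Tlr3 (1.17) and Tlr5 (0.346). All neighbours in this order overlapped in their ranges over the WT libraries. In Nfkb2-/- BMDCs the means ran from Tlr4 (51.8), Tlr9 (17.8), Tlr2 (16.6), Tlr13 (15.6), Tlr8 (10.9) and Tlr7 (7.599) down to Tlr3 (1.47), Tlr6 (1.34), Tlr1 (0.895) and Tlr5 (0.487). Here Tlr4 stood above Tlr9, Tlr7 above Tlr3, Tlr6 above Tlr1 and Tlr1 above Tlr5 in all libraries without overlap, while the other neighbours overlapped. Tlr4, Tlr8, Tlr9, Tlr2, Tlr13 and Tlr7 had means of at least 7.599 CPM per kb in both genotypes, and the other 4 receptors had means of at most 1.53 CPM per kb. Tlr4 made up 15.0%, 26.7% and 15.2% of the summed level per kb of the 10 receptors in the WT libraries and 36.4%, 43.3% and 43.6% in the Nfkb2-/- libraries. Tlr9 made up 45.25% of it in WT replicate 3 and 11.01% to 19.07% in the other libraries.

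**Figure D3:**
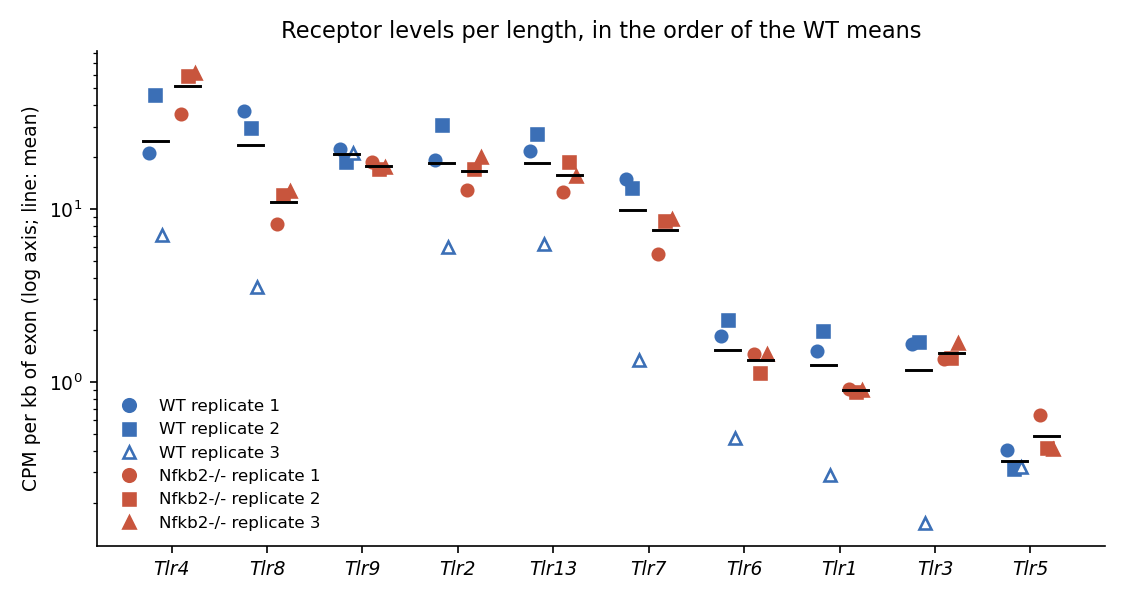
Level of each receptor per kb of exon in each library on a log axis, with WT in blue, Nfkb2-/- in red, WT replicate 3 as open triangles and black lines for the genotype means. Tlr4 has the highest mean in both genotypes (24.6 and 51.8 CPM per kb), and Tlr6, Tlr1, Tlr3 and Tlr5 form the low end.

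The low receptor levels of WT replicate 3 were set beside markers of other cells in the same libraries. The 5 cell-surface receptors summed to 190, 362 and 61.8 CPM in WT and 247, 388 and 410 CPM in Nfkb2-/- libraries. The 5 endosomal receptors summed to 374, 350 and 119 CPM in WT and 178, 225 and 218 CPM in Nfkb2-/- libraries. The summed level of 9 macrophage markers, led by Csf1r, was 853, 992 and 152 CPM in WT and 615, 599 and 743 CPM in Nfkb2-/- libraries. All 9 macrophage markers were lowest in WT replicate 3, as were 5361 of the 21849 genes tested. For 8 of the 9, WT replicate 3 lay at least 2-fold below each other library, as for 7.64% of all genes. The 9 dendritic cell markers had their highest sum, 8168 CPM, in WT replicate 3, where Cd74, Ccr7, H2-Eb1 and Zbtb46 were highest of all libraries and Itgax, which encodes CD11c, was lowest. Cd74 and Ccr7 made up most of that sum, at 3691 and 1897 CPM. In bulk RNA, fewer cells of a type and less RNA per cell cannot be told apart, and the part of these markers in the receptor levels was not tested.

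Other marker lists differed between the genotypes or between libraries as well. The sum of 6 cDC1 markers, led by Wdfy4, was 55.4 to 259 CPM in WT and 562 to 596 CPM in Nfkb2-/- libraries, lowest in WT replicate 3. Xcr1, which defines these cells, did not exceed 0.62 CPM. This difference and the low sum of WT replicate 3 lay mainly in Wdfy4. It measured 25.5 to 231 CPM in WT and 532.5 to 556.8 CPM in Nfkb2-/- libraries. Clec9a and Itgae were also higher without overlap, while Batf3 and Cadm1 had log2 fold changes of -0.37 and -0.06. The sum of 5 cDC2 markers, led by Irf4, was 1487 to 1698 CPM in WT and 2077 to 2283 CPM in Nfkb2-/- libraries. This difference lay mainly in Mgl2, which did not overlap, at 37.7 to 299 CPM in WT and 599 to 703 CPM in Nfkb2-/- libraries. Irf4 overlapped. Sirpa went the other way and overlapped, at 308 to 478 CPM in WT and 280 to 331 CPM in Nfkb2-/- libraries. Its log2 fold change was -0.39, while 4 of the 5 cDC2 markers had a value above 0. Cd209a, Itgam and Mgl2 were all over 2-fold lower in WT replicate 3 than in any other library. Of 7 neutrophil markers tested, led by S100a8, the sum was 67.0 to 158 CPM in WT and 177 to 196 CPM in Nfkb2-/- libraries. This difference lay mainly in Cxcr2, at 1.31 to 11.97 CPM in WT and 65.1 to 93.1 CPM in Nfkb2-/- libraries, while S100a8 overlapped and 5 of the 7 had a log2 fold change below 0. Mast cell and basophil markers, led by Cpa3, summed to 9.29 to 15.3 CPM in WT and 6.53 to 7.33 CPM in Nfkb2-/- libraries. This difference lay mainly in Cpa3, at 6.31 to 10.8 CPM in WT and 1.86 to 2.49 CPM in Nfkb2-/- libraries. Gata2 went the other way without overlap, at 0.688 to 1.91 CPM in WT and 3.22 to 4.05 CPM in Nfkb2-/- libraries. In all, 4 of the 5 tested had a log2 fold change below 0. Plasmacytoid dendritic cell markers, led by Tcf4, summed to 149 to 171 CPM in WT and 152 to 192 CPM in Nfkb2-/- libraries, with the defining Siglech at or below 0.66 CPM. Ighm, the most abundant B cell marker, was lowest in WT replicate 3, at 20.6, 23.7 and 3.17 CPM in WT and 10.5, 11.8 and 11.7 CPM in Nfkb2-/- libraries. Of 6 T and NK cell markers listed, 2 were tested, the T cell genes Cd3e and Cd3g, which summed to at most 1.92 CPM in any library. The NK cell markers Ncr1 and Klrb1c had too few counts to be tested. The part of these cells in the receptor differences was not tested.

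**Figure D4:**
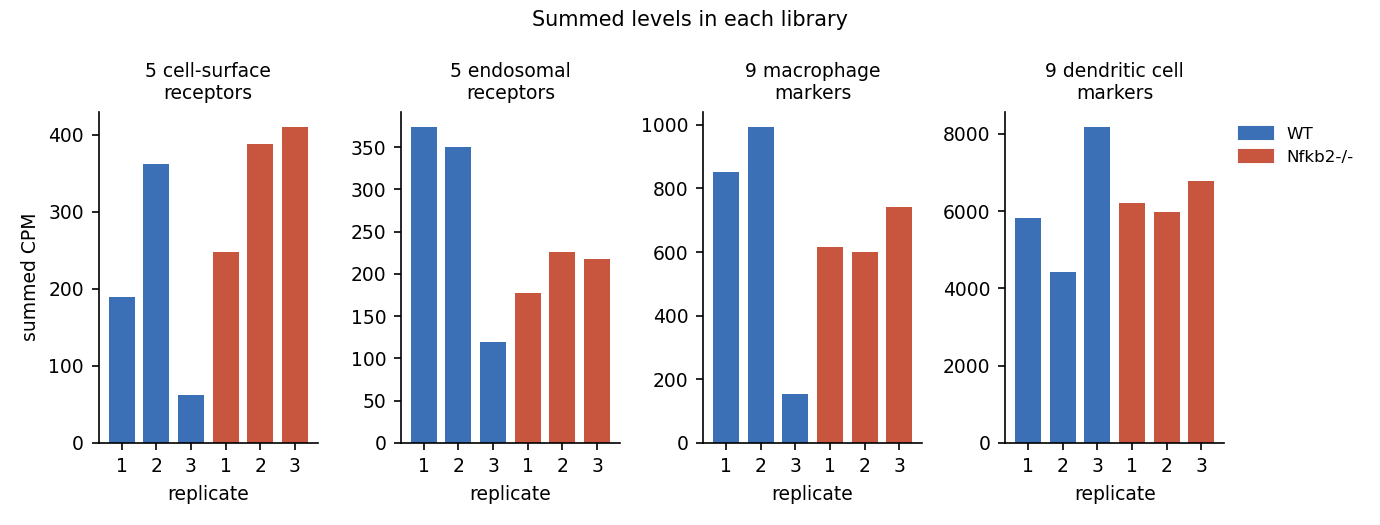
Summed CPM of the 5 cell-surface receptors, the 5 endosomal receptors, 9 macrophage markers and 9 dendritic cell markers in each library, with bars from 0, WT in blue and Nfkb2-/- in red. WT replicate 3 is lowest for both receptor groups (61.8 and 119 CPM) and for macrophage markers (152 CPM), and highest for dendritic cell markers (8168 CPM).

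Ratios of the counts of 2 genes within a library do not depend on how libraries are scaled, and 8 ratios of receptors that act together or alternately were compared between the genotypes. The ratio of Tlr7 to Tlr8 was 0.459, 0.515 and 0.433 in the WT libraries and 0.762, 0.810 and 0.789 in the Nfkb2-/- libraries. WT replicate 3 was thus close to the other WT libraries in this ratio, despite its low level of both genes. The ratio was 1.68-fold higher in Nfkb2-/- BMDCs (log2 means -1.10 ± 0.13 in WT and -0.35 ± 0.04 in Nfkb2-/-, SD, n = 3 each, two-sided exact permutation p = 0.1, the smallest this design allows, adjusted p = 0.4 over the 8 ratios).

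The ratio of Tlr4 to Cd14, which hands lipopolysaccharide to the receptor complex, was 4.06, 8.03 and 7.68 in WT and 14.8, 16.9 and 15.5 in Nfkb2-/- libraries. It was 2.49-fold higher in Nfkb2-/- BMDCs without overlap of the genotypes, again with an exact permutation p = 0.1 and an adjusted p = 0.4. Neither ratio passed the test, which 3 libraries against 3 cannot do. Of all ratios of 2 genes whose mean levels reached 1 CPM, 31.5% showed no overlap between the genotypes, and 2 of the 8 receptor ratios did. Ratios of Tlr4 to Ly96, the MD-2 subunit of the same complex, ran from 1.21 to 14.0 in WT and from 13.9 to 19.4 in Nfkb2-/- libraries and overlapped. The ratios of Tlr1 and Tlr6 to Tlr2 and to each other overlapped, with folds of 0.877, 0.987 and 0.889. The ratios of Tlr7 and Tlr3 to Tlr9 overlapped too, with WT replicate 3 lowest in both at 0.0746 and 0.0108. Without that library the log2 difference of Tlr7 to Tlr9 turned from 0.43 to -0.72, and that of Tlr3 to Tlr9 fell from 1.18 to 0.0115.

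All 45 ratios between the 10 receptors were counted as well, which was decided after the values had been seen. Of these, 12 showed no overlap between the genotypes, or 26.7%, near the 31.5% over all pairs of genes. Tlr4 took part in 6 of the 12, being higher relative to Tlr1, Tlr2, Tlr6, Tlr7, Tlr8 and Tlr13 in every Nfkb2-/- library than in any WT library. Relative to Tlr8, for example, Tlr4 stood at 0.886, 2.41 and 3.12 in WT and at 6.70, 7.62 and 7.47 in Nfkb2-/- libraries.

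**Figure D5:**
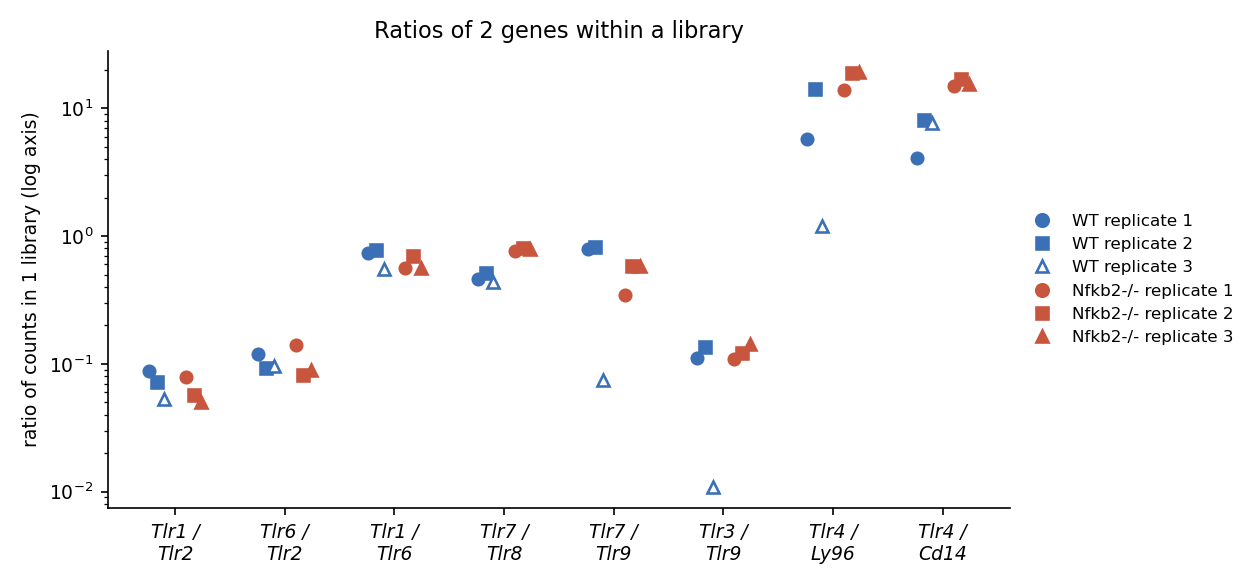
Ratio of the counts of 2 genes within each library, on a log axis, for the 8 ratios compared, with WT in blue, Nfkb2-/- in red and WT replicate 3 as open triangles. The genotypes are apart for Tlr7 to Tlr8 and for Tlr4 to Cd14 and overlap for the other 6.

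Genes that serve the receptors were counted in 6 lists with 88 tested members, of which 3 passed the test, all lower in Nfkb2-/- BMDCs, or 3.41% beside 1.14% of all genes. The genotypes did not overlap in 32 of the 88, or 36.4% beside 24.7% of all genes, and the median log2 fold change was 0.01. Co-receptors and ligand carriers had 0 of 6 members past the test and a median log2 fold change of -0.37. An unadjusted p under 0.05 in edgeR was reached by 2 of the 6, beside 17.1% of all genes. Cd36, a scavenger receptor that presents lipids to Tlr2 with Tlr6, was nevertheless far apart, at 301, 305 and 73.8 CPM in WT and 929, 1258 and 1007 CPM in Nfkb2-/- libraries. Its log2 fold change of 2.23 (SE 0.51) missed the threshold with all libraries (edgeR adjusted p = 0.0908) and passed it without WT replicate 3, at 1.82 (edgeR adjusted p = 0.0261). Cd180, a relative of Tlr4 on B cells and myeloid cells, ranged from 6.64 to 79.2 CPM in WT and from 44.2 to 70.1 CPM in Nfkb2-/- libraries. Cd14 ranged from 5.13 to 31.5 CPM in WT and from 13.3 to 21.9 CPM in Nfkb2-/- libraries. Ly96 differed in its pattern, being highest in WT replicate 3. It measured 20.6, 18.0 and 32.6 CPM in WT and 14.2, 17.3 and 17.5 CPM in Nfkb2-/- libraries. The genotypes did not overlap, and the log2 fold change of -0.54 did not pass the test (edgeR adjusted p = 0.329).

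Of 13 genes for folding, trafficking and endosomal processing, 4 had an unadjusted p under 0.05 in edgeR, beside 17.1% of all genes. The median log2 fold change was 0.11, and 1 of the 13 passed the test, beside 1.14% of all genes. This was Lgmn, the endosomal asparagine endopeptidase that cleaves nucleic acid-sensing receptors, at 321, 205 and 329 CPM in WT and 91.7, 96.7 and 87.2 CPM in Nfkb2-/- libraries. Lgmn was 3.10-fold lower in Nfkb2-/- BMDCs, by a log2 fold change of -1.63 (SE 0.21, edgeR adjusted p = 0.0312), and without WT replicate 3 by -1.52 (edgeR adjusted p = 0.0415). The chaperone gene Unc93b1, singled out after its values were seen, measured 116, 150 and 51.6 CPM in WT and 125, 141 and 145 CPM in Nfkb2-/- libraries, with WT replicate 3 again lowest. The 6 adaptors all missed the threshold, also unadjusted, with a median of 0.39. Among the 4 most abundant, Pik3ap1 (BCAP) ranged from 17.5 to 99.6 CPM in WT and from 74.9 to 90.6 CPM in Nfkb2-/- libraries, and Myd88 from 25.4 to 45.04 and from 40.5 to 53.1 CPM. Ticam2, the bridging adaptor TRAM of Tlr4, ranged from 19.5 to 34.1 and from 24.6 to 34.8 CPM, and Tirap, the bridging adaptor of MyD88, from 17.4 to 25.8 and from 24.7 to 32.5 CPM.

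Of 26 kinases, ligases and transcription factors, 1 passed the test, and the median log2 fold change was -0.11. An unadjusted p under 0.05 in edgeR was reached by 7 of the 26, beside 17.1% of all genes. The genotypes did not overlap in 11, 2 higher and 9 lower in Nfkb2-/- BMDCs, beside 24.7% of all genes. Map3k8, the kinase that links the receptors to ERK signaling, measured 56.9, 62.5 and 70.1 CPM in WT and 29.4, 36.1 and 34.6 CPM in Nfkb2-/- libraries, with a log2 fold change of -0.92 (SE 0.16, edgeR adjusted p = 0.0474). Of 16 negative regulators, 0 passed and 4 had an unadjusted p under 0.05 in edgeR, with a median of -0.11. Their most abundant members were Nfkbia, the NF-κB inhibitor IκBα, with a log2 fold change of -1.01 (edgeR adjusted p = 0.117), Cyld with -0.06, Inpp5d with -0.04 and Tnfaip3 with -0.66.

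Of 21 tested genes that receptor signaling induces, 1 passed with a median over the list of 0.30, and 2 more on the list, Il12a and Ifnb1, had too few counts. The log2 fold change was above 0 for 15 of the 21 and below 0 for 6. An unadjusted p under 0.05 in edgeR was reached by 7, beside 17.1% of all genes. The genotypes did not overlap in 7, 4 higher and 3 lower in Nfkb2-/- BMDCs, beside 24.7% of all genes. Il12b, which encodes the p40 subunit of IL-12 and IL-23, measured 110, 32.7 and 153 CPM in unstimulated WT and 10.6, 13.7 and 10.4 CPM in Nfkb2-/- BMDCs. This was a log2 fold change of -3.09 (SE 0.53, edgeR adjusted p = 0.0489). Map3k8 and Il12b missed the threshold without WT replicate 3, and Lgmn, Map3k8 and Il12b all missed it without WT replicate 1 or any 1 Nfkb2-/- replicate, where 0 genes passed in all. Across the 6 lists, WT replicate 3 lay at least 2-fold below each other library for 16 of 88 genes, beside 7 of the 10 receptors and 7.64% of all genes.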

How the data were processed

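RNA-seq libraries of 3 WT and 3 Nfkb2-/- BMDC samples were grouped by their labels. The authors deposited whole-number counts of reads per Ensembl gene and library, without normalization. Their processing notes name HISAT2, GRCm38 and mm10, whereas the counting tool, annotation release and use of strand are not given in the sources used here. A deposited table joining the libraries holds the same counts and was not used.

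Following the study's filters, genes whose counts summed to under 50 across libraries and IDs without a name in GENCODE M21 (1.01% to 1.75% of a library's counts) were left out. Counts were TMM-normalized and compared with edgeR 4.0.16 (glmQLFit, glmQLFTest, no covariates) in R 4.3.3. Genes passed at a Benjamini-Hochberg adjusted p under 0.05 over all genes tested and a fold change over 1.2. The standard error is the log2 fold change divided by the square root of F. The code was tested on simulated data. Depth of 29863927 to 55623068 counts made 1 count equal to 0.0187 to 0.0344 CPM.

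Levels per kb used the union of GENCODE M21 exons. Ratios were tested by exact permutation. Alternatives were DESeq2 1.42.0, limma 3.58.1 voom, other normalizations, filters and thresholds, a replicate block, and each library left out. All 10 receptors were named, with Tlr11, Tlr12 and Nfkb2. From each pathway list every member past the test was named, otherwise the 4 with the highest mean CPM, and from each marker list the most abundant, those near 0 and the sum (the B cell sum is not reported here). Members named outside this rule (Itgax, H2-Ab1, Unc93b1, and markers beside the most abundant) were picked after their values were seen. The receptors and lists were chosen with earlier results of these data known.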

Additional observations from a re-analysis of the deposited data

How the results depend on the processing

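Of 140 log2 fold changes of the 10 receptors under 14 alternatives, 126 kept direction and side of the threshold, 11 reversed and 3 came to pass the test. Of 56 log2 ratio differences, 52 kept their direction, and 4 reversed with a library left out, for Tlr6/Tlr2 (-0.256 to 0.129, turned without WT replicate 1 or Nfkb2-/- replicate 2 or 3) and Tlr7/Tlr9 (-0.716 to 1.02, turned without WT replicate 3). Reversals were Tlr2 (0.0971 with limma voom, 0.0573 with the replicate block), Tlr6 (0.0364 and 0.0355), Tlr7 (0.167 and 0.0598) and, with a library left out, Tlr2 (-0.58 to 0.39), Tlr3 (-0.18 to 0.70), Tlr6 (-0.62 to 0.20), Tlr7 (-0.89 to 0.0588) and Tlr13 (-0.64 to 0.16). WT replicate 2 turned Tlr2, Tlr6 and Tlr13, WT replicate 1 Tlr7 and WT replicate 3 Tlr3. Receptors passing were 2 with no filter beyond 1 count (Tlr4 at 1.03, adjusted p = 0.0324, and Tlr8 at -1.14, adjusted p = 0.00255, edgeR) and 0 to 1 with a library left out, the 1 being Tlr8 without WT replicate 3. Over all alternatives the adjusted p of Tlr8 ran from 0.00255 to 0.812 and that of Tlr4 from 0.0324 to 0.661.

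Genes called were 1890 with DESeq2, 488 with limma voom, 397 with filterByExpr, 1625 with no filter beyond 1 count, 459 with at least 10 counts in every library, 808 at an adjusted p under 0.1, and 0 to 1248 with a library left out (0 without WT replicate 1 or any Nfkb2-/- replicate, 1248 without WT replicate 2). Under the replicate block 0 genes were called, with 3331 at an unadjusted p under 0.05. Pathway list members called were 15 with DESeq2, 13 with no filter, 0 with the replicate block and 0 to 10 with a library left out. With no filter the median over all genes moved to 0.60 and with total counts to 0.17, from 0.08. The correlations of same-numbered replicates' deviations were 0.26, 0.15 and 0.02. Nfkb2-/- replicates 1 and 2 correlated best with the WT replicate of the same number, and Nfkb2-/- replicate 3 with WT replicate 2 (0.16). These few values cannot decide whether the samples were paired. The labels share replicate numbers but do not state a pairing, and the main test used none. The cause of the changes between settings was not tested. Depth limits Tlr5, which rests on 45 to 104 counts in every library. It also limits Tlr3, Tlr1 and Tlr6 in WT replicate 3, where they rest on 23, 28 and 51 counts.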
